A study of Mus musculus with 2 samples.

Results

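The insulin-like growth factor binding proteins Igfbp1 to Igfbp7 were followed together with the growth factor Igf1 and its receptor Igf1r across the cell types of healthy mouse liver. These 9 genes were chosen by name, and all 9 were found among the 22508 genes of the count table. The cells came from livers of 8-week-old C57BL/6 mice with no treatment named in the labels; the tissue was taken apart with enzymes, cleaned on a Percoll gradient and read with the Chromium droplet method, which counts each captured transcript once as a unique molecular identifier (UMI). There was 1 group, WT, with 2 samples, WT replicate 1 (7362 cells, 40645060 UMIs) and WT replicate 2 (2341 cells, 11867207 UMIs). Whether these were separate animals is not given.

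Insulin-like growth factor 1 is a secreted hormone that acts through a receptor tyrosine kinase, Igf1r, and the liver is known as the main source of the hormone in blood. Binding proteins hold the hormone in the circulation and in tissue, prolong its life, and can either block or deliver it; Igfbp3 and Igfbp5 can form a ternary complex with the hormone and the acid-labile subunit, whereas Igfbp7 binds the hormone only weakly and is found in vessel walls and matrix. In liver, hepatocytes face sinusoids lined by fenestrated endothelium, stellate cells lie between both layers, fibroblasts sit around portal tracts, and mesothelium covers the surface.

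Cell types were called from marker UMIs, so each type is named by the markers of its gate and not by an annotation of the authors. Barcodes with fewer than 200 genes or over 20% mitochondrial UMIs were left out, which kept 6765 of replicate 1 (median 4719 UMIs) and 2341 of replicate 2 (median 5012 UMIs). A total of 8420 cells fell into 17 types of at least 20 cells, from 27 neutrophil to 2544 sinusoidal endothelial cells. The vein endothelial gate (Wnt9b, Lhx6 and Selp) was not sharply apart from the sinusoidal one. Its 127 cells had 4168 CPM of sinusoidal endothelial markers, against 7115 CPM in sinusoidal and 1062 CPM in vascular endothelial cells. In clusters made without the members, 125 of them shared a cluster with 217 sinusoidal-gated cells. The 2331 stellate cells (gate markers Lrat, Reln, Colec11 and others) were all of replicate 2, and every other type was read in replicate 1, so stellate identity and library cannot be told apart, and no type was measured in both. No test between types was therefore possible: values are counts per 1000000 UMIs (CPM) of the summed cells, and intervals are exact 95% intervals that cover counting error only. Hepatocyte markers, at 18935 CPM in hepatocytes, were also seen in the other 16 types, from 34.7 CPM in stellate cells to 769 CPM in cholangiocytes. Whether those UMIs came from free RNA, mixed droplets or the cells themselves was not tested, nor was their part in low member levels.

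Of the 7 binding protein genes, 4 form neighbouring pairs with their 3′ ends facing each other (GENCODE vM21, GRCm38). Igfbp1 (chromosome 11, 7197782 to 7202546, plus strand) ends 3539 bases from Igfbp3 (chromosome 11, 7206086 to 7213923, minus strand). Igfbp2 (chromosome 1, 72824503 to 72852474, plus strand) ends 5457 bases from Igfbp5 (chromosome 1, 72857932 to 72874884, minus strand). The leading types differed within each pair: the first gene led in hepatocytes, the second in portal fibroblasts or mesothelial cells. Mesothelial cells, which led for Igfbp5, also held Igfbp2, with 129 UMIs against 126 in hepatocytes. Because the leading types differed, the promoter sequences of these 4 genes are shown. Each covers the 130 bases from position -150 to position -21 before the RefSeq start (GRCm38.p6), 5′ to 3′ on the strand of the gene. Matches to the searched motifs are in capitals.
Igfbp1 promoter (chr11:7197637-7197766, plus strand): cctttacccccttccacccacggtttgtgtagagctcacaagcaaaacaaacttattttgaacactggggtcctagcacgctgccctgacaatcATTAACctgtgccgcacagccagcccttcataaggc
Igfbp3 promoter (chr11:7213944-7214073, minus strand): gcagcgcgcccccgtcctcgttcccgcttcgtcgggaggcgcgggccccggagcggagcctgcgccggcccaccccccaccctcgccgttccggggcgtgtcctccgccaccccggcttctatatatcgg
Igfbp2 promoter (chr1:72824330-72824459, plus strand): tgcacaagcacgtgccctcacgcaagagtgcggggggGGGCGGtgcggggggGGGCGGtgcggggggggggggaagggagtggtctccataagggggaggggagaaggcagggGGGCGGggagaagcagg
Igfbp5 promoter (chr1:72874886-72875015, minus strand): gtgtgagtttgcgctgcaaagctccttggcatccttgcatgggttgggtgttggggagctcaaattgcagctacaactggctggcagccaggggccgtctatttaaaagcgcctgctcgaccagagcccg

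All 9 members matched a RefSeq promoter entry, and Igfbp2 had a second start besides the one shown. Motifs of 5 kinds were searched on both strands. General promoter elements were the TATA box, spelled TATAAA, and the GC box that Sp1 binds, spelled GGGCGG. For hepatocyte factors, a half-site of HNF1 was spelled GTTAAT and the forkhead core motif was spelled GTAAACA. The AP-1 motif, bound by growth-induced factors, was spelled TGANTCA. No matches in the members overlapped. The Igfbp1 window held 1 HNF1 half-site, as ATTAAC on the strand shown, at positions -56 to -51; 3.35% of the 32851 RefSeq promoter windows of the same length held that motif. Igfbp2 held 3 GC boxes, a motif found in 25.1% of all windows. The Igfbp3 and Igfbp5 windows held none of the 5 motifs in the exact spellings given. Variant spellings were not searched, so a window without a match may still hold an element of that kind. G and C bases made up 51.5% of the Igfbp1 window, 76.9% of Igfbp3, 74.6% of Igfbp2 and 57.7% of Igfbp5, against a median of 53.8% over all windows. A match describes letters only and not a bound site.

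The remaining members lie apart from each other. Igf1 is on chromosome 10 (87858265 to 87937042, plus strand) and overlaps the antisense gene Igf1os, which is also in the count table. Igf1r is on chromosome 7 (67952827 to 68233668, plus strand), Igfbp4 on chromosome 11 (99041244 to 99054392, plus strand) and Igfbp6 on chromosome 15 (102144362 to 102149511, plus strand). Igfbp7 (chromosome 5, 77349240 to 77408041, minus strand) overlaps Polr2b on the opposite strand. How the counting treated strand is not given in the sources used here, so reads of Igf1 and Igf1os, or of Igfbp7 and Polr2b, cannot be told apart with certainty.

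The first question was which cell type holds each gene. All 9 members had at least 50 UMIs over the types. For 5 of 9 members (Igf1r, Igfbp1, Igfbp5, Igfbp6 and Igfbp7) the leading type had at least 2 times the CPM of the next, a property of 22.6% of the 14970 genes with at least 50 UMIs. Of these 5, Igfbp1 and Igfbp6 kept the 2-fold lead under every alternative that gave a leading type. Igfbp5 missed it with clusters in place of gates (1.95-fold) and with a mean of per-cell values (11038 against 5524 CPM), Igfbp7 with the 16 smooth muscle cells added (1.97-fold) and without replicate 2, and Igf1r with sparsely read types left out (1.13-fold). Without replicate 2, and so without stellate cells, Igfbp3 gained a lead of 3.77-fold, in portal fibroblasts over lymphatic endothelial cells. A mesenchymal gate (stellate, portal fibroblast or mesothelial) led for 4 of 9 members, Igfbp3, Igfbp5, Igfbp6 and Igfbp7, against 16.4% of those genes. Counting the mesothelial surface layer as mesenchymal was a choice of grouping, and Igfbp5 and Igfbp6 entered the count through it. Hepatocytes led for Igf1, Igfbp1 and Igfbp2, vascular endothelial cells for Igfbp4, and neutrophils for Igf1r.

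**Figure D1:**
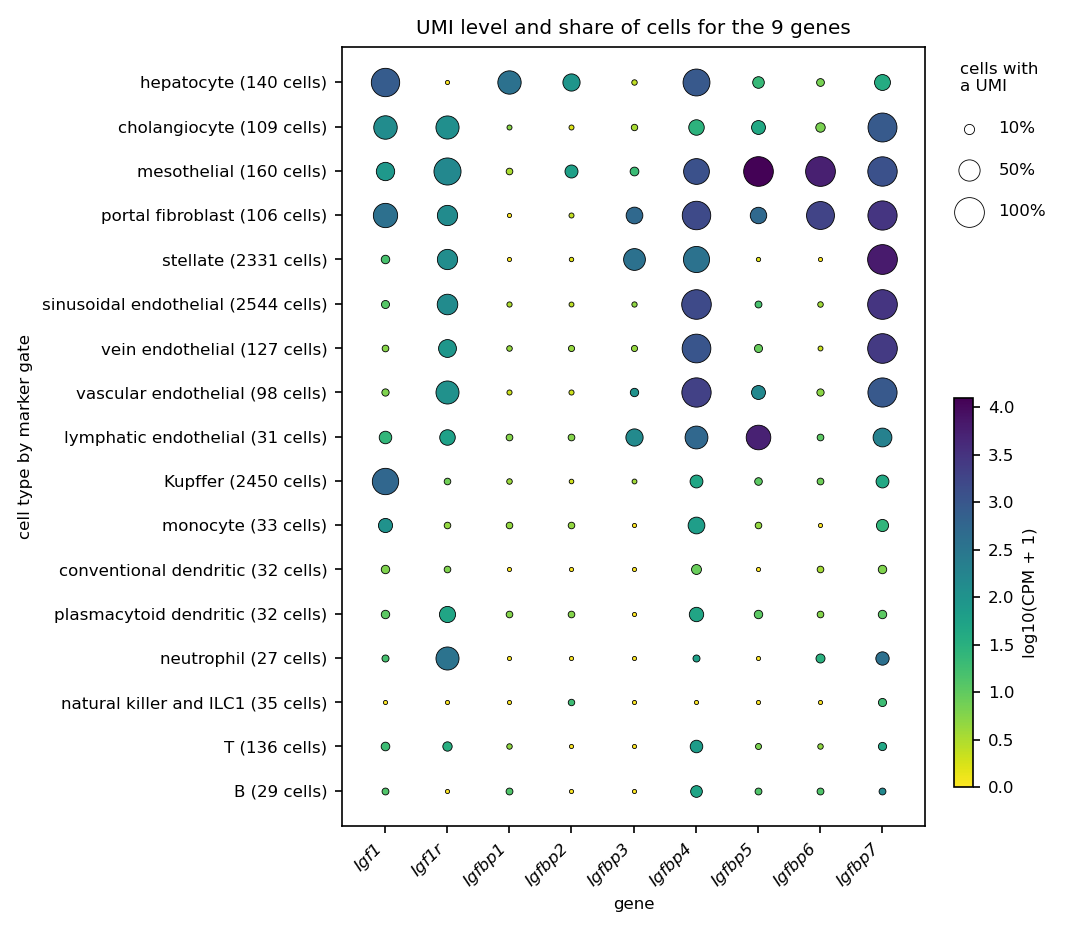
Level of the 9 genes (columns) in the 17 cell types (rows). Colour gives log10(CPM + 1) and dot area the share of cells with at least 1 UMI; Igfbp5 and Igfbp6 are darkest in mesothelial cells, Igfbp7 in stellate cells, and Igfbp1 is seen mainly in hepatocytes.

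Igf1, the ligand, was highest in hepatocytes, Kupffer cells and portal fibroblasts. Hepatocytes held the highest level, 840 CPM (792 to 890), with a UMI in 127 of 140 cells. Kupffer cells, the resident macrophages of the sinusoid, followed at 553 CPM (540 to 567), with a UMI in 1911 of 2450 cells, and portal fibroblasts at 402 CPM (357 to 450), with a UMI in 70 of 106 cells. These 3 levels were apart beyond counting error: hepatocytes exceeded Kupffer cells 1.52-fold (1.43 to 1.62), and Kupffer cells exceeded portal fibroblasts 1.38-fold (1.23 to 1.55).

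Because Kupffer cells were many in this preparation (29.1% of typed cells against 1.66% hepatocytes), they carried 74.7% of all Igf1 UMIs in typed cells and hepatocytes 13.1%. The mix of cells after the gradient is not that of the whole organ, so these shares describe the libraries. Thinned to 1000 UMIs per cell, 55.4% of hepatocytes (4 shallower cells left out) and 41.0% of Kupffer cells (151 left out) had an Igf1 UMI. Within the Kupffer gate the level lay between 544 and 627 CPM in 4 Leiden clusters made without the members, and the lowest (526 to 562) and the highest (573 to 685) were apart beyond counting error: 544 CPM in a cluster led by the cytokine genes Il6 and Il10, 566 CPM in the cluster with Siglec1 among its leading genes, 592 CPM in a shallow cluster (median 1172 UMIs) whose leading genes were mast cell proteases and 627 CPM in the cluster led by the proliferation gene Top2a.

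Lower Igf1 levels were found in cholangiocytes (129 CPM, 112 to 148), monocytes (100 CPM, 66.6 to 145) and mesothelial cells (80.8 CPM, 69.2 to 93.7), and no neighbours in this order differed beyond counting error. The intervals of cholangiocytes and mesothelial cells, which are not neighbours, did not overlap. The monocyte value rested on 1 cell with 20 of the 28 UMIs, without which it was 30.3 CPM. Cholangiocytes had the highest level of hepatocyte markers outside the hepatocytes (769 CPM), and it was the same in the 67 cells with an Igf1 UMI (769 CPM) and in the 42 without (769 CPM). Stellate cells had 14.6 CPM (12.5 to 16.9; 149 of 2331 cells, 6.39%, median depth 5009 UMIs) and sinusoidal endothelial cells 11.1 CPM. T cells, taken as a background type, had 18.5 CPM (8.89 to 34.1) and a UMI in 6.62% of cells at a median depth of 3431.5 UMIs. The sinusoidal level is not above that background. Stellate cells were the one type read in replicate 2, so no background type of their own library was available; hepatocyte markers stood at 34.7 CPM in stellate cells and 180 CPM in T cells.

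Igf1r, the receptor, had no UMI in hepatocytes and was found in stroma and endothelium. No UMI of Igf1r was found among 1366129 UMIs of hepatocytes (0 of 140 cells; with a limit of 3 counts, 0 allows up to 2.20 CPM and a UMI in up to 2.14% of cells, which does not limit the share that expresses the gene), at least 39.1-fold below the mean of the other types. Kupffer cells had 6.85 CPM (5.44 to 8.51). Most stromal, endothelial and biliary types sat close together: mesothelial cells at 155 CPM (139 to 173), sinusoidal endothelial cells at 138 CPM (132 to 144), portal fibroblasts at 136 CPM (110 to 165), stellate cells at 128 CPM (121 to 134), cholangiocytes at 116 CPM (100 to 134), vascular endothelial cells at 110 CPM (89.6 to 133) and vein endothelial cells at 85.8 CPM (67.5 to 108). No pair of neighbours in this run differed beyond counting error. Types further apart in it could differ: the intervals of mesothelial and vein endothelial cells, at its ends, did not overlap.

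The highest Igf1r level was that of neutrophils, 349 CPM (221 to 524), from 23 UMIs in 16 of 27 cells with at most 3 UMIs in a cell. Neutrophils were shallow (median 2270 UMIs) and had the highest level of sinusoidal endothelial markers outside the endothelium (577 CPM; 812 CPM in the 16 cells with an Igf1r UMI and 198 CPM in the 11 without). Sinusoidal endothelial cells themselves held 7115 CPM of that list, and the part of endothelial RNA in the neutrophil value was not tested. With the 7 types that had fewer than 100 UMIs of members left out, mesothelial cells led.

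**Figure D2:**
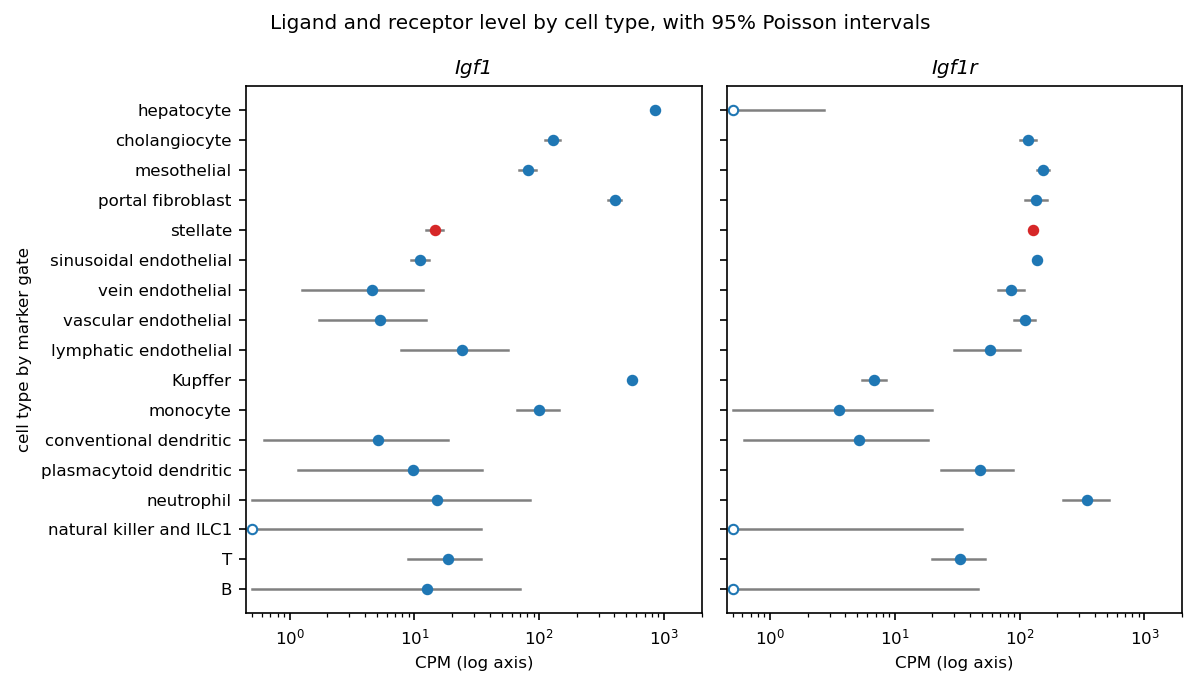
Igf1 (left) and Igf1r (right) by cell type, CPM on a log axis with 95% Poisson intervals as bars; stellate cells (replicate 2) are red, all other types (replicate 1) blue, and open circles at the left edge mark types with 0 UMIs. Hepatocytes are highest for Igf1 and have no Igf1r UMI, while the stromal and endothelial Igf1r levels lie between 57.8 and 155 CPM.

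Igfbp1, a binding protein known to be made by hepatocytes under control of insulin, was the most restricted of the hepatocyte members. Hepatocytes had 365 CPM (333 to 398), with 498 of 588 UMIs (84.7%) in 1.66% of the typed cells and a UMI in 85 of 140 cells. The level was 127-fold the mean of the other types. All other types had 12.6 CPM or less, stellate cells had 0 UMIs in 2331 cells (a limit of 0.254 CPM), and Kupffer cells had 3.21 CPM in 1.55% of cells (median depth 4161 UMIs).

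Igfbp2, a binding protein of the fetal circulation that persists in adult liver, was low throughout. Hepatocytes had 92.2 CPM (76.8 to 110) with a UMI in 45 of 140 cells, and mesothelial cells 60.2 CPM (50.3 to 71.6) with a UMI in 28 of 160 cells. The difference of 1.53-fold (1.19 to 1.97) was beyond counting error. Single cells held part of both levels, with up to 16 UMIs in a hepatocyte and 22 in a mesothelial cell; without that cell each was 82.3 and 50.8 CPM. The 28 mesothelial cells with an Igfbp2 UMI had 173 CPM of hepatocyte markers and the 132 without had 197 CPM. Portal fibroblast markers stood at 873 against 451 CPM, and the part of either list in the Igfbp2 level was not tested. Other types had 18.7 CPM or less.

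Igfbp3, the main carrier of the hormone in blood, was a gene of the stellate and portal fibroblast gates. Portal fibroblasts had 526 CPM (475 to 581) and stellate cells 375 CPM (364 to 386), a ratio of 1.40 (1.26 to 1.56) that also crosses libraries. The order turned when cells with at least 16 Igfbp3 UMIs were left out of both, which was tried after the values were known: the remaining 95 portal fibroblasts had 147 CPM (119 to 180) and the remaining 2302 stellate cells 334 CPM (323 to 344). Because this cut is made on Igfbp3 itself, it shows how the UMIs were spread and does not decide which type is higher. Hepatocytes had 2 UMIs (1.46 CPM), and 87.2% of Igfbp3 UMIs were in stellate cells. The next types were lymphatic endothelial cells at 140 CPM (93.6 to 201; 29 UMIs in 10 cells) and vascular endothelial cells at 100 CPM (81.0 to 122). The vascular value came from 6 of 98 cells, of which 1 held 74 of 95 UMIs; without that cell it was 22.5 CPM. In those 6 cells stellate markers stood at 405 CPM against 48.0 CPM in the other 92, and smooth muscle markers at 297 against 9.15 CPM.

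The 2 leading types differed in how Igfbp3 was spread over cells. A UMI was found in 1227 of 2331 stellate cells (52.6%; 23.9% after thinning to 1000 UMIs) and in only 32 of 106 portal fibroblasts (30.2%; 18.8% after thinning), against 1.22% of sinusoidal endothelial cells of replicate 1 (median depth 5017 UMIs, and 5009 in stellate cells). In portal fibroblasts 10 cells with 16 to 31 UMIs held 62.1% of the Igfbp3 UMIs and 1 cell with 53 held 13.7%. In stellate cells the 29 cells with at least 16 UMIs held 12.4%. These 11 fibroblasts had 30.7 CPM of Pi16 and 20.5 CPM of Cd248, against 1672 and 388 CPM in the other 95, while Dpt was alike at 2569 and 2304 CPM. They also had more of the stellate markers Colec11 (256 against 17.2 CPM) and Tcf21 (287 against 102 CPM) and of the contractile gene Lmod1 (164 against 7.82 CPM), while the stellate markers Reln, Colec10 and Lama1 were at 0 UMIs in both. Over the whole lists, stellate markers stood at 604 against 136 CPM and portal fibroblast markers at 4299 against 7580 CPM. Among other lists, hepatocyte markers stood at 542 against 208 CPM, sinusoidal endothelial markers at 10.2 against 128 CPM and smooth muscle markers at 184 against 15.6 CPM, and median depth was 9746 against 6927 UMIs; the part of any of these was not tested. The set of 11 cells was chosen after its values were seen.

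**Figure D3:**
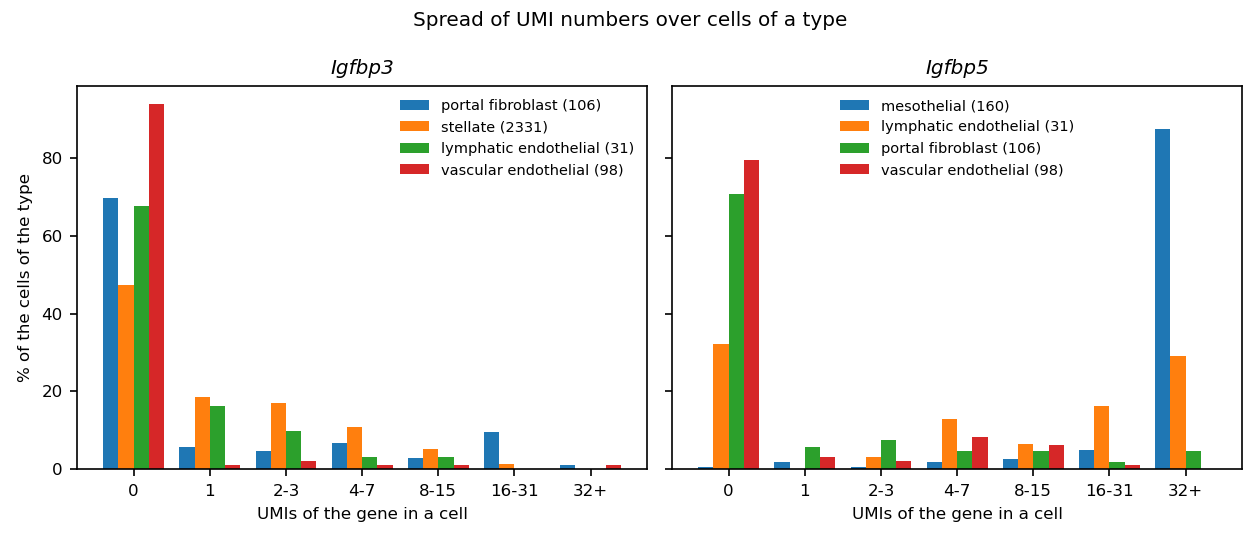
Share of cells (percent of the type, number of cells in brackets) by number of UMIs of Igfbp3 (left) and Igfbp5 (right) in a cell. Stellate cells fall off steadily from 1 to 16-31 Igfbp3 UMIs, portal fibroblasts have a second group at 16-31 UMIs (9.43% of cells), and 87.5% of mesothelial cells have 32 or more Igfbp5 UMIs.

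Igfbp4, a binding protein that mainly restrains the hormone and is cut by the protease Pappa, was found in endothelium, mesenchyme and hepatocytes. Vascular endothelial cells led at 2050 CPM (1959 to 2143), followed by sinusoidal endothelial cells at 1493 CPM (1473 to 1514), portal fibroblasts at 1490 CPM (1403 to 1580), mesothelial cells at 1224 CPM (1178 to 1272), vein endothelial cells at 1056 CPM (989 to 1126) and hepatocytes at 922 CPM (872 to 975). Only sinusoidal endothelial cells and portal fibroblasts did not differ beyond counting error in that order (interval of the ratio 0.943 to 1.07). Lymphatic endothelial cells had 535 CPM (440 to 644) and stellate cells 361 CPM (350 to 372). That stellate value is of replicate 2. The 5 stellate-gated cells of replicate 1 had 1028 CPM (672 to 1507) from 26 UMIs, 14 of them in 1 cell, and 757 CPM without that cell. A UMI was found in 2514 of 2544 sinusoidal endothelial cells, whose 20963 UMIs were 61.9% of the total. Kupffer cells stood far lower at 46.1 CPM and T cells at 70.4 CPM.

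Igfbp5, a matrix-bound binding protein, was concentrated in mesothelial cells at 11698 CPM (11554 to 11844), with a UMI in 159 of 160 cells and 92.3% of all Igfbp5 UMIs in 1.90% of the typed cells. Lymphatic endothelial cells were second at 5360 CPM (5050 to 5685), and mesothelial cells exceeded them 2.18-fold (2.06 to 2.32). Only 21 of the 31 lymphatic cells had a UMI, and the highest cell had 276; without it the level was 4574 CPM. Mesothelial markers in the lymphatic cells were at 250 CPM where Igfbp5 was seen and at 216 CPM where it was not, with 1 of 8 markers detected in the cells with Igfbp5. Portal fibroblasts had 522 CPM (471 to 577) from 31 of 106 cells, and vascular endothelial cells 154 CPM (130 to 181) from 20 of 98 cells. Stellate cells had 7 UMIs, 5 of them in 1 cell (0.593 CPM, 0.238 to 1.22).

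Igfbp6, which prefers the second growth factor Igf2 as a ligand, was held by mesothelial cells and portal fibroblasts. Mesothelial cells had 5507 CPM (5408 to 5607) with a UMI in 160 of 160 cells, and portal fibroblasts 1906 CPM (1808 to 2008) with a UMI in 93 of 106 cells, a ratio of 2.89 (2.73 to 3.06). The 2 types together held nearly all of its UMIs, 88.3% and 10.5%. Every other type had 30.4 CPM or less, and the highest of these was the neutrophil value with 2 UMIs. Stellate cells had 0 UMIs in 11806643 (a limit of 0.254 CPM).

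Igfbp7, a matrix protein with low affinity for the hormone, was highest in stellate cells at 6314 CPM (6269 to 6359), with a UMI in all 2331 cells and 99.6% after thinning to 1000 UMIs. Sinusoidal endothelial cells (2937 CPM, 2908 to 2965) and portal fibroblasts (2896 CPM, 2775 to 3022) followed and did not differ beyond counting error (ratio 1.01, 0.971 to 1.06). Vein endothelial cells had 2523 CPM (2419 to 2631), mesothelial cells 1201 CPM (1155 to 1248), vascular endothelial cells 933 CPM (873 to 997) and cholangiocytes 902 CPM (856 to 950). Hepatocytes had only 38.1 CPM (28.4 to 49.9), close to Kupffer cells at 43.0 CPM and T cells at 44.5 CPM. The stellate lead of 2.15-fold over sinusoidal cells (2.12 to 2.18) also crosses libraries. In the 5 stellate-gated cells of replicate 1, where sinusoidal endothelial cells were read too, Igfbp7 stood at 6763 CPM (5787 to 7856). Of these 171 UMIs 1 cell held 78, and without it the level was 5121 CPM.

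Summed over the 7 genes, mesothelial cells had the highest level of binding protein transcripts, 19712 CPM, of which 59.3% was Igfbp5 and 27.9% Igfbp6. By number, stellate cells held more of these UMIs (83244) than sinusoidal endothelial (62540) and mesothelial cells (42218). Portal fibroblasts had 7342 CPM spread over several genes, 39.4% Igfbp7, 26.0% Igfbp6 and 20.3% Igfbp4. Stellate cells had nearly the same sum, 7051 CPM, but 89.6% of it was Igfbp7. Lymphatic endothelial cells had 6257 CPM (85.7% Igfbp5), sinusoidal endothelial cells 4455 CPM (65.9% Igfbp7, 33.5% Igfbp4), vascular endothelial cells 3243 CPM (63.2% Igfbp4) and hepatocytes 1446 CPM (63.8% Igfbp4, 25.2% Igfbp1). UMIs tag the 3′ end of a transcript once, so these shares were taken without a length correction. UMIs of at least 3 different binding protein genes were found in 98.8% of mesothelial cells, 86.8% of portal fibroblasts, 42.9% of hepatocytes, 39.5% of stellate cells and 0.571% of Kupffer cells, at median depths of 11859, 7030.5, 5236, 5009 and 4161 UMIs.

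**Figure D4:**
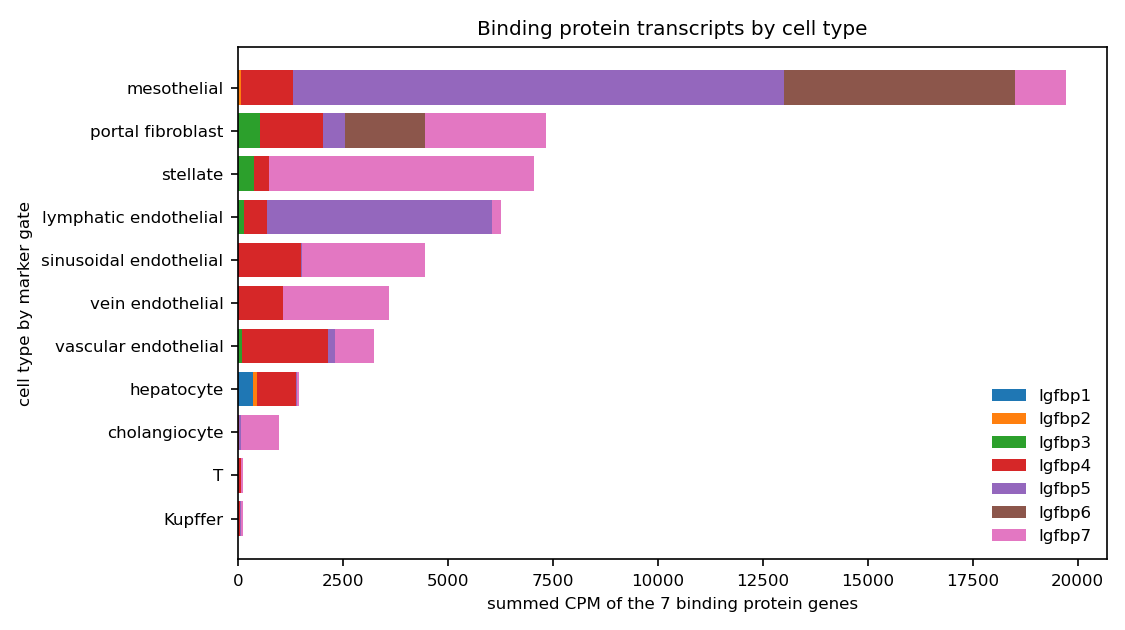
Summed CPM of the 7 binding protein genes by cell type, split by gene, for the 11 types with the most UMIs of these genes. Mesothelial cells reach 19712 CPM, mainly Igfbp5 and Igfbp6, and stellate cells 7051 CPM, mainly Igfbp7.

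Set against the mean CPM of the other types, stellate cells were at least 2-fold higher for 2 of 9 members, Igfbp3 and Igfbp7 (6314 against a mean of 770 CPM), where 12.6% of all tested genes were called higher. They were at least 2-fold lower for 5 of 9 (Igf1, Igfbp1, Igfbp2, Igfbp5 and Igfbp6), where 26.7% of genes were called lower. For the 2 members with 0 UMIs the stellate level was at least 101-fold (Igfbp1) and at least 1846-fold (Igfbp6) lower. The Igfbp1 mean includes hepatocytes (365 CPM), and the Igfbp6 mean mesothelial cells (5507 CPM) and portal fibroblasts (1906 CPM). Every other type had 12.6 CPM or less of Igfbp1 and 30.4 CPM or less of Igfbp6. With the 5 stellate cells of replicate 1 in place of those of replicate 2, only 2 members were called lower, since these cells hold 25285 UMIs in all. Portal fibroblasts were higher for 5 members (13.5% of genes) and lower for 3 (21.6%), and mesothelial cells higher for 5 (13.1%) and lower for 2 (24.5%). Hepatocytes were higher for 3 (11.0%) and lower for 5 (49.9%), and Kupffer cells higher for Igf1 alone (11.0%) and lower for the other 8 (35.4%). Sinusoidal endothelial cells were higher for 2 (13.5%) and lower for 6 (28.6%), and vascular endothelial cells higher for 1 (10.8%) and lower for 5 (21.7%). A lower call did not always mean a low rank. For Igfbp5, portal fibroblasts (522 CPM) ranked 3 and vascular endothelial cells (154 CPM) ranked 4 among the types, yet both were called lower. Their means (1084 and 1107 CPM) include mesothelial cells (11698 CPM) and lymphatic endothelial cells (5360 CPM). The median log2 ratios of the members use the same kind of mean. The median log2 ratio of the members was above 0 in portal fibroblasts (1.56, against -0.08 over all genes tested) and mesothelial cells (1.03, against -0.16). It was below 0 in vascular endothelial cells (-2.85, against -0.07), stellate cells (-3.25, against -0.12), sinusoidal endothelial cells (-3.58, against -0.11), Kupffer cells (-3.70, against -0.44) and hepatocytes (-4.93, against -0.99).

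Position in the lobule was read from a score of central minus portal landmark genes, split into 3 equal ranges within a type and a library. Stellate landmarks were Adamtsl2, Loxl1, Podn and Spon2 (central) and Ngfr, Itgb3 and Il34 (portal). Igfbp3, as a member, was left out of that list, so its portal rise was not unforeseen. Sinusoidal landmarks were Wnt2, Rspo3, Cdh13, Thbd and Kit (central) and Efnb2, Dll4, Ntn4 and Msr1 (portal). Hepatocyte landmarks were Glul, Oat, Slc1a2, Cyp1a2 and Rgn (central) and Hal, Cyp2f2, Sds and Hsd17b13 (portal). In stellate cells (777 per range) 2 members differed at least 2-fold, where 1.26% of 9732 tested genes were higher in the central and 1.01% in the portal range. Igf1 had 100, 43 and 29 UMIs in the central, middle and portal ranges (26.4, 11.0 and 7.06 CPM), and Igfbp3 had 737, 1020 and 2667 UMIs (195, 261 and 650 CPM). Both gradients ran through the middle range and in opposite directions. The Igf1 levels are low, and their background in replicate 2 could not be measured in another type; T cells of replicate 1 had 18.5 CPM (8.89 to 34.1). After thinning to 1000 UMIs, 2.49% of central and 0.761% of portal stellate cells had an Igf1 UMI. Markers of other types differed along the axis too. In the direction of Igf1, hepatocyte markers stood at 43.1 CPM in the central and 31.2 CPM in the portal range, and mesothelial markers at 9.51 and 0.974 CPM. In the direction of Igfbp3, Kupffer markers stood at 145 and 244 CPM, portal fibroblast markers at 28.5 and 45.1 CPM and smooth muscle markers at 11.1 and 35.6 CPM. Their part in either gradient was not tested. Igfbp4 ran 1.36-fold (1.26 to 1.46) above the portal level in central cells, and Igf1r (1.04, 0.918 to 1.18) and Igfbp7 (0.965, 0.948 to 0.983) were nearly flat.

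In sinusoidal endothelial cells (848 per range) Igfbp5 was the member with a gradient, where 1.28% of 9762 tested genes were called in the central and 1.54% in the portal range. It had 23, 38 and 145 UMIs from central to portal (5.15, 8.04 and 29.9 CPM), a portal to central ratio of 5.80 (3.72 to 9.44), and was seen in 0.504% and 1.43% of cells after thinning. Of its 206 UMIs, 91 lay in 51 gated cells of the Leiden cluster named vascular endothelial (leading genes Nrg1 and Gja5), and the highest cell had 27. Lymphatic endothelial markers, the list of the endothelial type richest in Igfbp5, were at 5.83 CPM in the central and 5.15 CPM in the portal range, and vascular endothelial markers at 965 and 1133 CPM. Portal cells exceeded central cells 1.21-fold (1.08 to 1.36) for Igf1r, and central cells exceeded portal cells 1.09-fold (1.07 to 1.12) for Igfbp7. Igfbp4 did not differ beyond counting error (central over portal 0.976, 0.945 to 1.01).

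In hepatocytes (46 per outer range) no member passed 2-fold between the central and portal ranges, where 10.2% of 2460 genes were called in the central and 3.70% in the portal range. Igf1 stood at 674, 933 and 1027 CPM from central to portal, a portal to central ratio of 1.52 (1.33 to 1.74). Igfbp1 (366, 386 and 348 CPM) and Igfbp4 (962, 787 and 953 CPM) did not differ between the outer ranges beyond counting error. Igfbp2 was highest in the middle range, at 198 CPM against 55.8 and 76.1 CPM. Central hepatocytes were deeper (median 13390.5 UMIs) than portal ones (5872 UMIs).

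**Figure D5:**
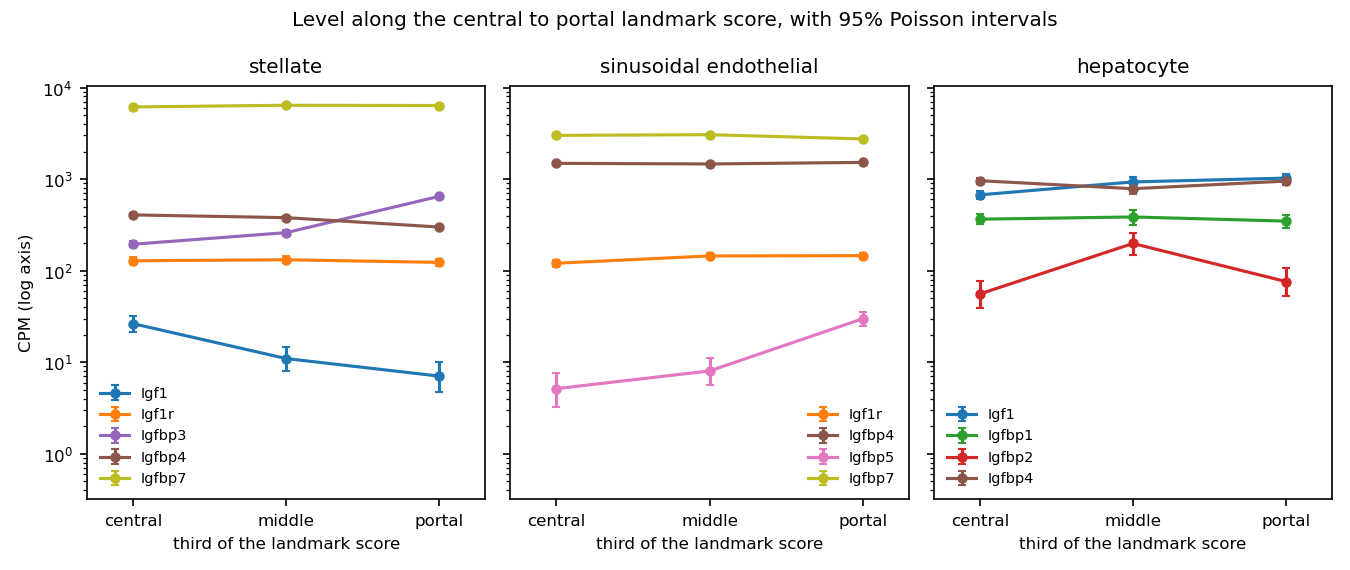
CPM (log axis) in the central, middle and portal range of the landmark score in stellate, sinusoidal endothelial and hepatocyte cells, with 95% Poisson intervals. Igf1 falls and Igfbp3 rises toward the portal range of stellate cells, Igfbp5 rises in sinusoidal endothelial cells, and Igf1r, Igfbp4 and Igfbp7 stay within 2-fold.

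Other genes of the pathway came from a list of 53, of which 47 were in the table and 41 had at least 50 UMIs. In hepatocytes 5 of 41 were at least 2-fold higher than the mean of the other types (11.0% of all genes tested) and 21 lower (49.9%), near the shares over all genes. The 5 included the acid-labile subunit Igfals (58.6 CPM, 46.4 to 72.9) and the growth hormone receptor Ghr (466 CPM, 430 to 503), whose signal drives Igf1 in liver. Stellate cells were higher for 8 (12.6% of all genes) and lower for 12 (26.7%), and portal fibroblasts higher for 13 (13.5%) and lower for 7 (21.6%). Mesothelial cells were higher for 10 (13.1%) and lower for 9 (24.5%), and Kupffer cells higher for 4 (11.0%) and lower for 26 (35.4%). Sinusoidal endothelial cells were higher for 9 (13.5%) and lower for 19 (28.6%), and vascular endothelial cells higher for 9 (10.8%) and lower for 11 (21.7%). Among ligands, Igf2 was nearly undetected, with 5 UMIs over all types.

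Of the receptors, the insulin receptor Insr was highest in vascular endothelial cells (551 CPM, 505 to 601) and stood at 203 CPM in sinusoidal endothelial cells, 69.5 CPM in hepatocytes and 44.2 CPM in stellate cells. Lrp1, an uptake receptor that also binds Igfbp3, was highest in portal fibroblasts (852 CPM, 787 to 921) and stellate cells (742 CPM, 727 to 758), the 2 types that led for Igfbp3. Kupffer cells, with 2.79 CPM of Igfbp3, were also at least 2-fold above the mean of the other types for Lrp1. Lrp2 was seen in mesothelial cells at 226 CPM, and Igf2r, which clears Igf2, led in portal fibroblasts at 128 CPM. Prlr, the prolactin receptor, was highest in mesothelial cells at 268 CPM (247 to 291). Of the proteases, Htra1, which cuts Igfbp5, was highest in portal fibroblasts (372 CPM, 329 to 418), followed by mesothelial cells (328 CPM, 304 to 353), and Adamts1 led in stellate cells (751 CPM, 736 to 767). The protease inhibitor Stc1 led in lymphatic endothelial cells (198 CPM), and the kallikrein Klk1, which is also a gate marker, in plasmacytoid dendritic cells (1305 CPM).

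The genes most like each member were taken by the Pearson correlation of log2(CPM + 1) over the 17 types, as a description. Igfbp3 was closest to Tagln (0.973), a contractile protein gene, then Hrct1 and Ccdc3. Igfbp7 was closest to the matrix genes Sparc and Hspg2 (0.925) and to Dlc1 (0.925). Igfbp6 was closest to Sfrp2 (0.922), Prss12 and Dmkn, and Igfbp5 to Ablim3 (0.888), Anxa8 and Tmtc1. The hepatocyte member Igfbp1 was closest to Tat (0.905), which is also a gate marker, Pemt and Akr1c6; Igfbp2 to Ndufa1 (0.832), Hal and Ephx2. Igfbp4 was closest to Wasl (0.897), Slc43a3 and Lman1, Igf1r to Ccdc126 (0.955), Tjap1 and Klf7, and Igf1 to Acot1 (0.857), Aspa and Etfa. Among the members themselves, Igf1r and Igfbp7 (0.692) and Igfbp5 and Igfbp6 (0.698) were closest. The types share 1 library apart from the stellate cells, and small types have few UMIs.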

How the data were processed

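The deposited table holds raw UMI counts per gene and cell for 2 samples of mouse liver; per the submitters' processing notes Cell Ranger 2.1.1, Seurat 3.1 and GRCm38 were used, with no step given for each. Cells were assigned to replicates by the number that ends each barcode, and 5 barcodes occur with both endings. Barcodes under 200 genes or over 20% mitochondrial UMIs were left out. A type needed UMIs of at least 2 different markers and a minimum number of marker UMIs (4; 20 for hepatocytes, 10 for Kupffer cells, 8 for stellate and sinusoidal endothelial cells, 3 for vein endothelial cells, 6 for vascular endothelial cells, neutrophils and cholangiocytes). A cell past the gates of 2 types went to the one at least 3 times stronger and was otherwise left out as mixed, which was the treatment of doublets; 139 mixed and 513 ungated cells of replicate 1, and 9 and 1 of replicate 2, entered no comparison. Of 129 markers 126 were in the table.

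Counts were summed per type and scaled to CPM (Python 3.11, numpy 2.4.6, scipy 1.17.1, scanpy 1.11.5). Poisson, binomial and conditional binomial intervals of 95% cover counting error only, and a 0 was set to 3 counts for a ratio. A gene was called at 2-fold with at least 50 UMIs, and genes of at least 200 UMIs entered the correlations. The text names all 9 members, the 3 genes most like each, and up to 4 pathway genes per role, those with the highest CPM in any type. Members and lists were chosen with earlier results of these data known, and gate minimums, the pathway roles, the thinning to 1000 UMIs and 5 added alternatives after the data were seen. The calling of folds was tested on simulated data.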

Additional observations from a re-analysis of the deposited data

How the results depend on the processing

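The count of members lower in stellate cells was 2 in place of 5 when the 5 stellate cells of WT replicate 1 were used, an alternative chosen after seeing the data; those cells hold 25285 UMIs in all. The number of members with a 2-fold lead was 4 in place of 5 with clusters in place of gates, a mean of per-cell CPM, smooth muscle cells added and sparsely read types left out. Without WT replicate 2 it stayed at 5, but with Igfbp3 in place of Igfbp7. All counts other than the stellate one stayed within 1.5 times under every alternative that gave a value (stricter gates, clusters in place of gates, a stricter cell filter, the highest 5% of doublet scores left out, a mean of per-cell CPM, the lymphoid level subtracted, types of at least 15 cells). The leading type was the same in 79 of 81 combinations of member and alternative. The exceptions were Igfbp7, led by sinusoidal endothelial cells without WT replicate 2, and Igf1r, led by mesothelial cells with sparsely read types left out. Not every combination could differ. Subtracting the lymphoid level took the same value of a gene from every type and could not change its leading type. Leaving out WT replicate 2 or sparsely read types could change it only where the leading type was left out. The CPM of a member in its leading type stayed within its interval in 50 of 64 cases. Cases that left out the replicate without the leading type used the same cells and could not move. The largest moves were for Igfbp3, 147 CPM in portal fibroblasts without the cells of at least 16 UMIs, and for Igfbp2, 74.7 CPM as a mean per cell. The Igfbp3 move follows from a cut on the value compared. Without WT replicate 1 only stellate cells remain, and without WT replicate 2 too few stellate cells, so neither gives the stellate comparison. No paired analysis was possible because the samples form 1 group and share no cell type of 20 cells. In neutrophils, with 65847 UMIs in all, 1 UMI is 15.2 CPM.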

Other observations

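Cells outside the comparisons carried the members as well. The 16 smooth muscle cells of replicate 1 had 3209 CPM of Igfbp7 (359 UMIs, all 16 cells), 813 CPM of Igfbp5 (91 UMIs, 12 cells) and 778 CPM of Igfbp4 (87 UMIs, 14 cells), while Igf1, Igfbp3 and Igfbp6 had 1 UMI each and Igfbp1 and Igfbp2 none. Their Igfbp5 level thus lay above the portal fibroblast value of 522 CPM and their Igfbp3 level below it.

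The 5 stellate-gated cells of replicate 1 had 171 UMIs of Igfbp7 (6763 CPM), 26 of Igfbp4 (1028 CPM), 9 of Igfbp3 (356 CPM) and 0 of Igfbp5 and Igfbp6, with 1186 CPM of sinusoidal endothelial markers. The 139 mixed cells of replicate 1 had 1851 CPM of Igfbp5 (2282 UMIs in 32 cells, at most 316 in a cell) and 995 CPM of Igfbp6 (1227 UMIs in 33 cells). The 513 ungated cells of replicate 1, shallow at a median of 1005 UMIs, had 885 CPM of Igfbp7, 564 CPM of Igfbp4 and 129 CPM of Igf1.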
